A study of Mus musculus with 11 samples.

Results

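HA-H3.3 and HA-Macro were compared in mouse ES cells after 6 hours of doxycycline (Dox), with 1 ChIP-Seq library for each variant, which makes 2 of the 11 libraries of the series. Both lines are KH2 ES cells of the strain given as 129 X C57bl/6, in which the transactivator M2rtTA is expressed from the ROSA26 locus and a TetO-driven cDNA of an HA-tagged histone sits downstream of Col1a1. The HA-H3.3 line carries H3.3 and the HA-Macro line carries MacroH2A2. Each line descends from electroporated clones, so that a difference between the variants cannot be told apart from a difference between clones. Both lines received Dox at 2 μg/ml after feeder fibroblasts had been depleted by pre-plating, and the cells were not synchronized. Both libraries were made with the same HA antibody, so they report newly made tagged histone rather than all H3.3 or all MacroH2A2. The HA-Macro line without Dox, precipitated with the same antibody, gives the background of HA-Macro. The paper ascribes trace promoter signal in that library to likely leaky expression of HA-MacroH2A2, or alternatively to isolation of open chromatin. The promoter reads of this background may therefore include tagged histone. No library of the HA-H3.3 line without Dox was used here. The corresponding 3 hour libraries were read as a second view of each place, and 3 hours and 6 hours are separate libraries of the same lines. Places were also read with a library of the HA-Macro line after 12 hours of Dox and with an anti-MacroH2A2 library of ES cells, which the labels give as untreated parental KH2 cells. Its title names 2 replicates but it is 1 file, and the study describes its anti-MacroH2A2 maps of ES cells as made from the HA-Macro line before and after Dox, so which cells it holds is not settled here.

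H3.3 is a histone H3 variant that can be placed into chromatin outside S phase, by HIRA at active genes and regulatory elements and by DAXX with ATRX at telomeres and other heterochromatin. MacroH2A2 is an H2A variant that carries a large macro domain after its histone fold, and macroH2A proteins are known from the inactive X chromosome and from silent genes in differentiated cells. In a pulse of tagged histone, the reads at a place come from tagged protein there and from background that needs no tag. These parts were not separated, and the background share of HA-H3.3 is not known here. Each ratio of HA-H3.3 over HA-Macro carries the background of both libraries. The 6 hour and no-Dox libraries are set to 10401138 reads and the 3 hour libraries to 6280929. The anti-MacroH2A2 library is used whole, with 8283985 reads. Counts at 3 hours and anti-MacroH2A2 counts are therefore not on the scale of the 6 hour counts. At one total, a lower value can stand beside more protein in all, and amounts were not measured.

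The HA-H3.3 library holds 10722793 intervals and the HA-Macro library 17710084. Distinct intervals on chromosomes 1 to 19 numbered 10401138 and 16224108, and HA-Macro and the no-Dox library were thinned at random to the HA-H3.3 number before any comparison. With 1 library for each variant there is no spread between replicates, no test and no p-value. The 95% intervals given are exact Clopper-Pearson intervals that cover counting error only, and interval bounds are on the same log2 scale as the value beside them. At this depth the genome mean was 4.35 reads per kb.

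The libraries differed in how they cover repeated sequence. Mapped intervals are 400 bp long in both HA-H3.3 libraries and in the anti-MacroH2A2 library of ES cells, and 150 bp long in the HA-Macro libraries. In the 166 tiles of 100 kb where at most 5% of positions start a 32 bp sequence that occurs once in mm9, HA-H3.3 averaged 10.6 reads per tile, HA-Macro 302 and the no-Dox library 349. The anti-MacroH2A2 library, which also has 400 bp intervals and was used whole at a smaller total, averaged 10.9 reads there. Why these libraries hold few reads in such tiles was not tested. HA-H3.3 had no read at all in 70 of these tiles, where HA-Macro had 139 to 784 reads. Where at least 80% of positions are unique the means were 487, 452 and 434 reads. Windows that reach 80% are called mappable here, and they hold 88.5% of HA-H3.3 and 79.6% of HA-Macro reads. The main results are given with and without the other windows. Exon and intron values and the classes of gene bodies are given over all sequence only. CpG classes, motif groups and promoter overlaps are given at mappable promoters only. Scaling both libraries to mappable windows lowered every log2 ratio of HA-H3.3 over HA-Macro by 0.15, and scaling to windows over 5 kb from any TSS raised it by 0.10, so ratios smaller than these shifts have no settled direction.

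Both tagged histones were enriched at gene starts, and HA-H3.3 far more so than HA-Macro. Around 33673 TSSs, HA-H3.3 reads within 600 bp of the TSS exceeded the density 4 to 2 kb upstream by 1.29 on the log2 scale (interval 1.28 to 1.29). HA-Macro exceeded it by 0.34 (0.33 to 0.35), and the no-Dox library by 0.24 (0.23 to 0.25). The HA-Macro peak was therefore closer to the no-Dox peak of its own line, which may hold leaked tagged histone, than to the HA-H3.3 peak. The difference between the variants was 0.94 (0.94 to 0.95), and 1.01 at mappable TSSs.

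The shape of the peaks differed as well. HA-H3.3 reached 3.36 times the genome mean at 350 bp upstream of the TSS, 3.22 times at 150 bp upstream and 4.22 times at 250 bp downstream, so that both flanks of the start site were raised. HA-Macro was at 1.35 and 1.28 times the genome mean at the same upstream places and reached 1.96 times at 150 bp downstream. The no-Dox library had its own maximum of 1.45 times at the same place. Per 600 bp, HA-H3.3 had 289604 reads upstream and 330030 downstream of the TSSs, a log2 ratio of -0.19. HA-Macro had 116907 and 154821, a ratio of -0.41, against -0.23 without Dox. Above the midpoint between its upstream level and its maximum, the HA-H3.3 peak was 1400 bp wide and the HA-Macro peak 500 bp. Because midpoints of 400 bp and 150 bp intervals lie at different distances from the sequenced end, widths and flanks carry that difference, and its part in them was not tested. With each read shared equally between both ends of its interval the peak heights were 1.25 and 0.34.

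**Figure D1:**
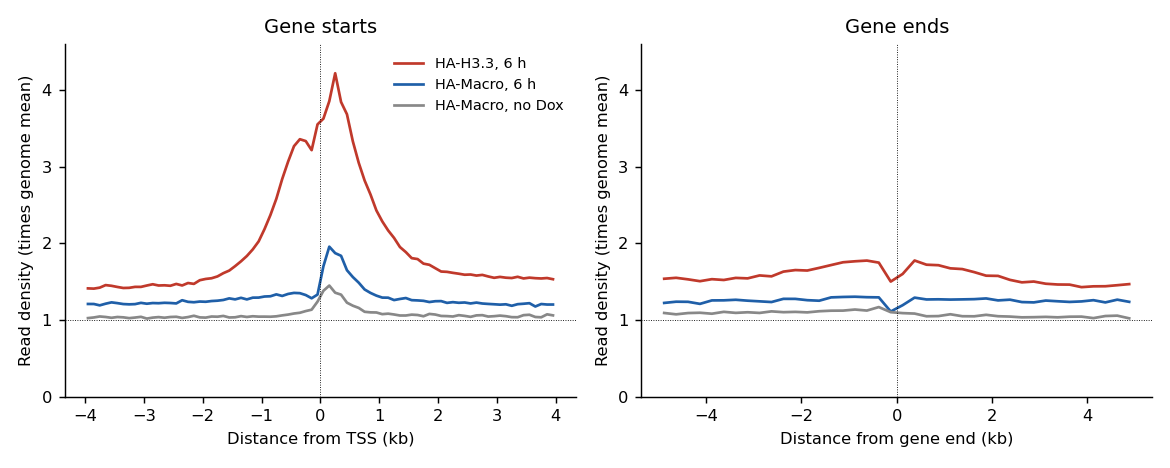
Read density in 100 bp bins around 33673 TSSs (left) and in 250 bp bins around 12281 gene ends (right), in multiples of the genome mean, for HA-H3.3 and HA-Macro after 6 hours of Dox and for HA-Macro without Dox, 1 library each. HA-H3.3 rises on both sides of the TSS to 4.22 times the mean, whereas HA-Macro rises mainly downstream, to 1.96 times, and at gene ends all curves stay under 2 times.

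At single promoters, taken as 600 bp on each side of the TSS, HA-H3.3 held more reads than HA-Macro at most of the genes with enough reads to judge. Over all promoters outside discarded tiles there were 620107 HA-H3.3 reads, 271957 HA-Macro reads and 214996 no-Dox reads, a 2.28-fold excess of HA-H3.3 over HA-Macro and a log2 excess of 0.34 of HA-Macro over no Dox. Of 16312 promoters with at least 20 reads in both libraries together, 11145 (68.3%) had at least 2-fold more HA-H3.3 after 1 read was added to each count, and 259 (1.59%) had at least 2-fold more HA-Macro. A promoter could pass this minimum through HA-H3.3 alone, so that the first share describes only the promoters that passed. Among mappable promoters 10866 of 15585 (69.7%) and 154 (0.988%) passed 2-fold in each direction. Of the 259 promoters with more HA-Macro, 105 were not mappable.

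The promoters at the high end of the ratio belonged to genes of varied function. A minimum of 40 reads in both libraries together was set here, which HA-H3.3 alone could meet, and 7241 protein-coding promoters passed it. Of these the 10 highest held 42 to 118 HA-H3.3 reads, 0 to 4 HA-Macro reads and 4 to 9 no-Dox reads. HA-Macro was below the no-Dox library at 9 of these 10. Id4, an inhibitor of basic helix-loop-helix transcription factors, had 103 HA-H3.3 and 2 HA-Macro reads. Tubb2b, a beta-tubulin, had 118 and 4. Zfp273, a zinc finger gene, had 52 and 0, which is at least 17.3-fold higher with 3 reads as the limit that a count of 0 allows. Ckap2, which encodes a spindle-associated protein, had 42 and 0, at least 14 times as many. Letm2, Brp44, Patz1, Pan2, Zfp51 and Anubl1 complete the group, with 45 to 89 HA-H3.3 reads against 1 or 2 HA-Macro reads. The selection on HA-H3.3 over HA-Macro at 6 hours fixed these values. In the 3 hour libraries, which took no part in the choice, all 10 again had more HA-H3.3, with log2 ratios of 0.63 to 2.54, where 82.3% of the 7241 promoters did.

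At the low end of these 7241 promoters the excess of HA-Macro was small. HA-H3.3 alone could meet the minimum of 40 reads, and HA-Macro had a median of 8 reads at protein-coding promoters. The minimum thus limits the low end. Over all promoters, 7.61% of those with at least 10 reads had 2-fold more HA-Macro, against 0.155% of those with at least 40. Gm11011 had 5 HA-H3.3 and 88 HA-Macro reads and Fcgr3, a receptor for IgG, 24 and 93, but only 32.2% and 11.8% of their windows are unique. The next was Ptgir, the prostacyclin receptor, with 13 and 28 reads, a log2 ratio of -1.05 (-2.18 to -0.11), and 3 reads without Dox. Gm9821 had 13 and 28 reads as well. Chd5, a chromatin remodeller of neural cells, had 15 and 30, and Dnajc8, a J domain protein, 14 and 28. Ntsr2 (neurotensin receptor), Shd, Selplg (P-selectin ligand) and Sp7 (a transcription factor of osteoblasts) had 15 to 17 HA-H3.3 and 26 to 30 HA-Macro reads, with intervals that include 0. At 3 hours 5 of these 10 promoters again had more HA-Macro, against 14.2% of the 7241. Gm11011 and Fcgr3, which are not mappable, were among the 5. Of the 10 lowest mappable promoters 4 had more HA-Macro at 3 hours. Chd5 had 19 HA-H3.3 and 7 HA-Macro reads at that time.

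Promoter sequence from both ends of this order is shown because CpG content, which played no part in the choice, moved with HA-H3.3. Each sequence runs 5′ to 3′ from 250 bases before to 50 bases after the TSS in mm9, with CpG dinucleotides in capitals. Id4 (chr13:48356546-48356845, plus strand) holds 24 CpGs and Zfp273 (chr13:67914503-67914802, plus strand) 7. Pou5f1, shown for the pluripotency genes (chr17:35642732-35643031, plus strand), holds 11. Of the promoters with more HA-Macro, Ptgir (chr7:17491589-17491888, plus strand) holds 6 and Chd5 (chr4:151712510-151712809, plus strand) 32.
Id4: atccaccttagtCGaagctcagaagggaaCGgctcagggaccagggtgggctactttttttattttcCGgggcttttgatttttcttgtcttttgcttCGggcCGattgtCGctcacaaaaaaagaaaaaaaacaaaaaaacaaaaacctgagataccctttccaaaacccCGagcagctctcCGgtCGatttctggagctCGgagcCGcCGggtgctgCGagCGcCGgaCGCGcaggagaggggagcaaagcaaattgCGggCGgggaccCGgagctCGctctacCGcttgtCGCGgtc
Zfp273: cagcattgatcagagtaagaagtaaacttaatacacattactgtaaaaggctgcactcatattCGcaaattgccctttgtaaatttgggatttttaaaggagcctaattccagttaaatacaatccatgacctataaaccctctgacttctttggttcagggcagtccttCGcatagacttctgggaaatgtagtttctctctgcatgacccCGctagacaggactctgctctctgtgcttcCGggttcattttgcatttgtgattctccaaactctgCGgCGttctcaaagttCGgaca
Pou5f1: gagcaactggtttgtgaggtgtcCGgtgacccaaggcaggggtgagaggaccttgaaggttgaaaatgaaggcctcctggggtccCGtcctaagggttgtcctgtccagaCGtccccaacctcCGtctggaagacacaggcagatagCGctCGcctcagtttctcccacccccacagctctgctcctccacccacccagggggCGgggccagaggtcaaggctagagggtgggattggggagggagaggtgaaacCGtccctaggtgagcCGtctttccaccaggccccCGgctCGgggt
Ptgir: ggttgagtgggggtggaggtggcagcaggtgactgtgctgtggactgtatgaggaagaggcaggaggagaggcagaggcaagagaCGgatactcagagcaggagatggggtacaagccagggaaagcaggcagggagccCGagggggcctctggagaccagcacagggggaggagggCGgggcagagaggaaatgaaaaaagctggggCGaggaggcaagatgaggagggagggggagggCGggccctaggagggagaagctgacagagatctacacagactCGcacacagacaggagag
Chd5: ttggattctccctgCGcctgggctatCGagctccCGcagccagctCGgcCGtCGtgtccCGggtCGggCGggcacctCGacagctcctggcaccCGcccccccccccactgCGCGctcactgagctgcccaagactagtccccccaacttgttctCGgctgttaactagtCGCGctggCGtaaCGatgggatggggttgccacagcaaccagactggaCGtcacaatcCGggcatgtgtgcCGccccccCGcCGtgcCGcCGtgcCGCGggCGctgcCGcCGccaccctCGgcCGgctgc
The median over 20794 protein-coding promoters was 12 CpGs, with quartiles of 3 and 23, so that the promoters shown lie from within the quartiles to above the upper one at both ends of the order. GGGCGG on either strand, the core of the GC box, occurred in 43.5% of these promoters and in the windows of Id4, Pou5f1, Ptgir and Chd5. TATAAA on either strand occurred in 13.7% and in that of Zfp273.

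Over all mappable protein-coding promoters, HA-H3.3 at 6 hours rose with CpG content more steeply than HA-Macro. In the 3075 promoters whose CpG number was under 0.2 of that expected from base composition, HA-H3.3 averaged 6.46 reads, HA-Macro 5.83 and the no-Dox library 5.60, with a log2 ratio of HA-H3.3 over HA-Macro of 0.15 (0.12 to 0.18). In the 5339 promoters between 0.6 and 0.8 the means were 34.8, 10.4 and 7.61 reads and the ratio was 1.74 (1.72 to 1.75). At 0.8 and over the means were 39.9, 12.3 and 8.28, and the ratio was 1.70. The log2 ratio of HA-Macro over no Dox went from 0.06 in the lowest to 0.57 in the highest of the 5 classes. At 3 hours the log2 ratio of HA-H3.3 over HA-Macro was 0.31 in the lowest, 0.69 in the middle and 0.54 in the highest class, a much smaller contrast than at 6 hours. Promoters with GGGCGG had a median of 32 HA-H3.3 and 10 HA-Macro reads, those without it 11 and 7. Their median CpG numbers were 23 and 5, so the motif and CpG content cannot be told apart here.

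Promoters were also ordered by their reads in the 3 hour HA-H3.3 library. This order comes from HA-H3.3 itself, so a steeper rise of HA-H3.3 is built into it and supports no difference between the variants. From the lowest to the highest of 10 equal classes of 18164 promoters in that library, HA-H3.3 at 6 hours went from 5.08 to 62.9 reads on average, 12.4-fold. HA-Macro went from 4.85 to 13.4 reads, 2.76-fold, and the no-Dox library from 5.08 to 8.75 reads, 1.72-fold. GC content went from 43.4% to 62.8% over the same classes. HA-Macro at 6 hours was thus higher where HA-H3.3 was high, by more than the background. The 1816 promoters with the most HA-H3.3 at 6 hours and the 1816 with the most HA-Macro shared 405, 22.3% of each list. With the no-Dox library the HA-H3.3 list shared 354, or 19.5%, close to its overlap with HA-Macro. Each list holds 1816 of 18164 promoters, so unrelated lists would share some as well. HA-H3.3 at 6 hours shared 61.3% of its list with HA-H3.3 at 3 hours, and HA-Macro shared 36.3% with HA-Macro at 3 hours and 27.4% with the no-Dox library. Lists drawn from few reads per promoter overlap less for that reason alone, and HA-Macro had a median of 9 reads at mappable protein-coding promoters against 23 for HA-H3.3.

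**Figure D2:**
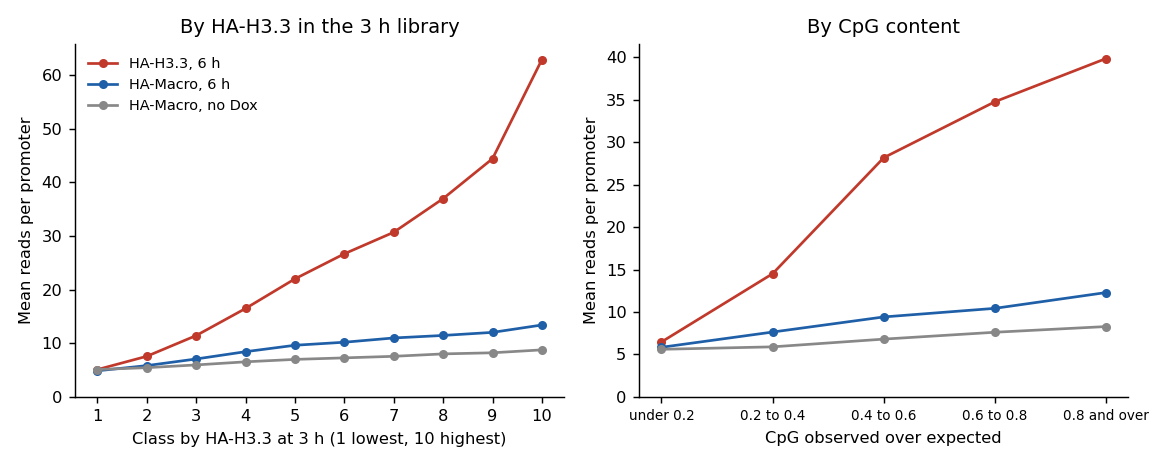
Mean reads per promoter at 6 hours for HA-H3.3, HA-Macro and HA-Macro without Dox over mappable protein-coding promoters, in 10 classes by HA-H3.3 reads in the 3 hour library (left, 1816 or 1817 promoters each) and in 5 classes of CpG observed over expected (right). HA-H3.3 goes from 5.08 to 62.9 reads over these classes and HA-Macro from 4.85 to 13.4.

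The gene lists described next were read over all members outside discarded tiles. Over all 20794 protein-coding promoters the median was 19 HA-H3.3, 8 HA-Macro and 7 no-Dox reads, and the pooled log2 ratio of HA-H3.3 over HA-Macro was 1.40 (1.39 to 1.41).

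Genes for the variants and their chaperones were high in HA-H3.3. The 21 members had a median of 41 HA-H3.3, 11 HA-Macro and 7 no-Dox reads and a pooled log2 ratio of 1.91 (1.71 to 2.11). All 21 had at least 20 reads, and 19 of them passed 2-fold toward HA-H3.3, against 68.3% of all promoters with that many. Hira, the chaperone that places H3.3 at active genes, had 105 HA-H3.3 and 20 HA-Macro reads, with a divergent start of Mrpl40 inside the same window. Daxx had 75 and 15. Of the genes for the proteins themselves, H3f3a had 70 and 10 reads, H3f3b 17 and 6, H2afy 29 and 9, and H2afy2, which encodes MacroH2A2, 38 and 13. H2afz, which encodes H2A.Z, had 64 and 17, and Supt16h, a subunit of the FACT chaperone, 63 and 19.

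Pluripotency genes had a median of 32 HA-H3.3 and 12 HA-Macro reads over 27 members, with 6 reads without Dox and a pooled log2 ratio of 1.65 (1.47 to 1.84). Pou5f1 had 60 HA-H3.3 and 13 HA-Macro reads, Sox2 53 and 16, and Nanog 36 and 12. Dnmt3b, the de novo DNA methyltransferase, had 91 and 20, and Trim28, a co-repressor of zinc finger proteins, 81 and 20. Fgf4 had 44 and 26 reads, and Esrrb 14 and 15, so that the ratio varied within the list. As a check of the labelled cell type, the 8 pluripotency markers held 281 HA-H3.3 and 81 HA-Macro reads together, from 14 to 60 and from 3 to 16 each. The 8 fibroblast markers held 81 and 57, from 3 to 22 and from 1 to 16, with none at 0 in either library. Reads of a tagged histone at a promoter are not a measure of expression, so these values describe the libraries and do not measure the share of feeder cells left.

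The fibroblast list of 25 genes had medians of 11 HA-H3.3 and 6 HA-Macro reads and a pooled ratio of 1.30 (1.04 to 1.56), beside 1.40 for all protein-coding promoters. The median log2 ratio over its members was 0.50, against 1.00 for protein-coding promoters, so that the pooled value leans on the few members with many reads, such as the 3 named next. Sparc had 65 and 6 reads, Fn1 62 and 8, and Vim 45 and 5, whereas Col1a1 had 12 and 11, Thy1 22 and 16, and Lox 10 and 1. Tgfb2 had 16 and 11 reads. Over 41 collagen genes the medians were 13 and 9 reads and the pooled ratio was 0.75 (0.57 to 0.93), with 38 and 10 reads at Col5a1 and 35 and 26 at Col18a1.

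Hox genes, which are held silent by Polycomb in ES cells, had a lower ratio than protein-coding genes in general. The 40 members, all mappable, had medians of 12.5 HA-H3.3, 9 HA-Macro and 7 no-Dox reads and a pooled log2 ratio of 0.38 (0.19 to 0.57). Hoxb13 had 19 and 22 reads, Hoxb9 25 and 21, and Hoxc13 27 and 12. Other developmental transcription factors (152 genes) had medians of 22 and 10 and a ratio of 1.26 (1.17 to 1.34), led by Foxm1, a factor of dividing cells, with 92 and 14.

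Zinc finger genes named Zfp (342) were among the lists with a high ratio, 1.79 (1.73 to 1.85), with medians of 25.5 HA-H3.3 and 8 HA-Macro reads. Zfp658 had 114 and 7, Zfp341 110 and 11, Zfp319 102 and 22 and Zfp710 90 and 14. Imprinted genes (35) had medians of 21 HA-H3.3 and 8 HA-Macro reads and a pooled ratio of 1.80 (1.62 to 1.99). To this Nap1l5 contributed 200 HA-H3.3 and 18 HA-Macro reads. The median log2 ratio over the members was 1.21, against 1.00 for protein-coding promoters, so that the pooled value leans on members with many reads. Plagl1 had 92 and 11 reads, Mcts2 89 and 9 and Nnat 73 and 18. Immediate early genes (23), which respond to growth signals within minutes, had medians of 39 and 11 and a ratio of 1.91 (1.72 to 2.11), with 93 and 7 reads at Zfp36 and 85 and 13 at Nr4a1.

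Promoters of 77 cytosolic ribosomal proteins had medians of 20 HA-H3.3, 10 HA-Macro and 7 no-Dox reads. Their pooled ratio was 1.15 (1.03 to 1.27), below the 1.40 of all protein-coding promoters. The median log2 ratio over the members was 1.10, against 1.00 for protein-coding promoters, so that the order depends on the summary used. Rps10 had 71 and 9 reads, whereas Rpl8 had 18 and 15 and Rpl32 15 and 11. Mitochondrial ribosomal proteins (75 genes) had a ratio of 1.56, respiratory chain genes (82) 1.52, proteasome genes (51) 1.42, translation initiation genes (55) 1.45 and splicing factors (46) 1.56. Ndufa13, a subunit of complex I, had 48 HA-H3.3 and 42 HA-Macro reads with 8 reads without Dox, one of the highest HA-Macro counts among the genes named here. Replication-dependent histone genes (67) had medians of 34 and 12 and a ratio of 1.52, and the 20 mappable ones medians of 46 and 10 and a ratio of 2.29. Hist2h2be and Hist2h2ac share their window.

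Receptor and tissue-restricted families had few reads in both libraries. Their no-Dox values give the background of HA-Macro only. Olfactory receptor promoters (1081) had medians of 3 HA-H3.3, 4 HA-Macro and 6 no-Dox reads. The same medians were 2, 4 and 6 for 318 vomeronasal receptors, and 4, 6 and 6 for 128 keratin and epidermal genes. The pooled ratio was -0.49 for olfactory receptors, and -0.32 over the 733 mappable ones. For vomeronasal receptors it was -0.69, and -0.04 over 123 mappable ones, and for keratin and epidermal genes -0.21, and 0.00455 over 96 mappable ones. HA-Macro over no Dox was -0.31 for olfactory receptors. At least 20 reads in both libraries together were reached by 16 olfactory receptors, 4 vomeronasal receptors and 20 keratin and epidermal genes, so that the order was not detectable in most single genes. Some members with more reads had an interval clear of 0, such as Krt18, a keratin of simple epithelia, with 50 HA-H3.3 and 15 HA-Macro reads, and Olfr94 with 33 and 9. Olfr279 had 12 and 23, with an interval that includes 0. Cytochrome P450, Ugt and Serpin genes (136) had medians of 4, 4.5 and 5 but a pooled ratio of 0.62 (0.48 to 0.76), and 0.87 over the 93 mappable ones. Of the 21 with at least 20 reads 15 (71.4%) passed 2-fold toward HA-H3.3, close to the 68.3% of all promoters with that many, among them Cyp2s1 with 63 HA-H3.3 and 14 HA-Macro reads.

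**Figure D3:**
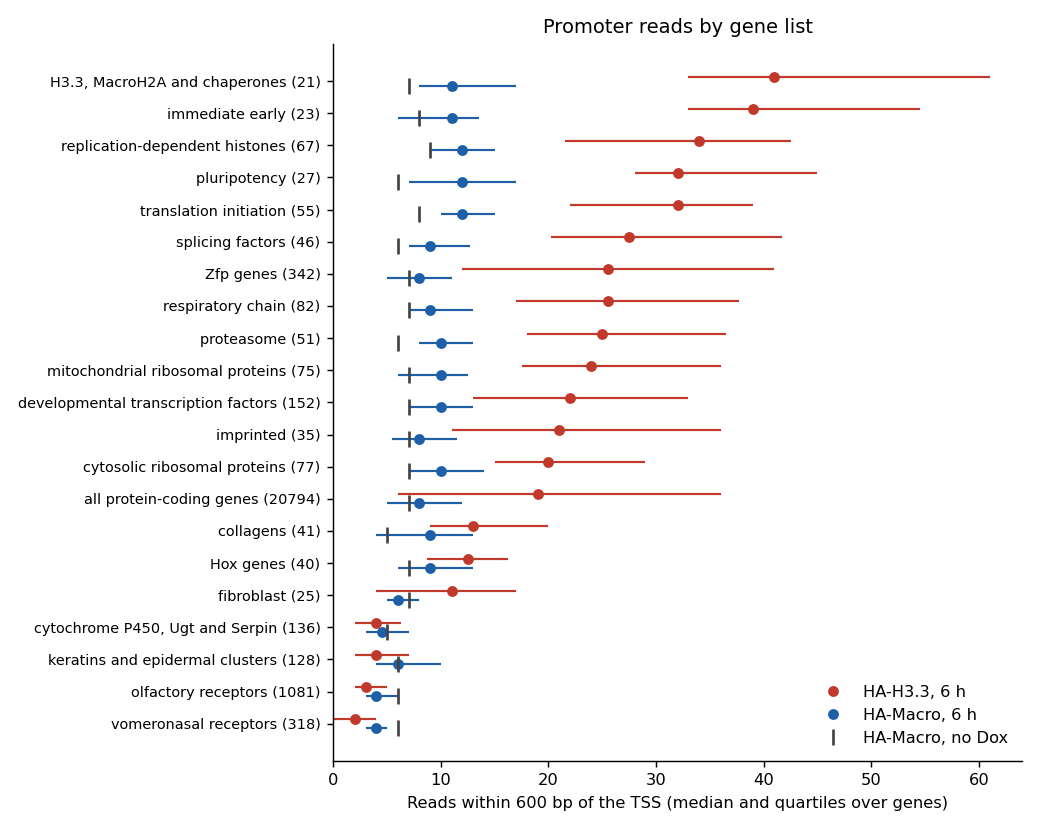
Promoter reads at 6 hours (TSS and 600 bp on each side) for each gene list, with the number of genes in parentheses, for HA-H3.3, HA-Macro and HA-Macro without Dox (points and ticks are medians over genes, bars run from the lower to the upper quartile). HA-H3.3 medians run from 2 to 41 reads, HA-Macro medians from 4 to 12.

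Nfat5, Zfhx3, Clasp1 and Gli2, which the study names, had a higher ratio of HA-H3.3 over HA-Macro at their starts than along their bodies. Nfat5, a transcription factor of the osmotic response, had 57 HA-H3.3 and 8 HA-Macro reads at its promoter and 435 and 367 in its body. Zfhx3 had 57 and 9 at its promoter and 2186 and 1660 in its body, with 1053 body reads without Dox. Clasp1 had 37 and 4, then 1272 and 1011. Gli2, an effector of Hedgehog signalling, had 39 and 6, then 1876 and 1211. All 4 bodies had more HA-H3.3 at 6 hours, with log2 ratios of 0.24 to 0.63, and more HA-Macro at 3 hours, with ratios of -0.46 to -0.17.

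Gene bodies as a whole were close to the genome mean in both libraries. In 9165 protein-coding genes of at least 20 kb, read from 5 kb after the start to 5 kb before the end, HA-H3.3 had 4.76 reads per kb, HA-Macro 4.40 and the no-Dox library 4.38. The log2 ratio of 0.11 (0.11 to 0.11) turned to -0.04 with scaling to mappable windows and to -0.0043 in genes of at least 100 kb, so that no direction is given for bodies as a whole. Within bodies the ratio moved with the promoter. The promoter order used here comes from the HA-H3.3 line itself. It may favour a steeper rise of HA-H3.3 and alone supports no difference between the variants. From the lowest to the highest of 5 equal classes of promoter HA-H3.3 at 3 hours, body HA-H3.3 went from 3.26 to 6.76 reads per kb, HA-Macro from 3.84 to 5.11 and no Dox from 4.20 to 4.66. The ratio went from -0.24 (-0.24 to -0.23) to 0.41 (0.40 to 0.41). The ratio was 0.33 in genes of 20 to 50 kb and -0.22 in genes over 500 kb, and gene length and promoter class were not separated. At 3 hours both trends ran the other way, from -8.0e-05 to -0.18 over the 5 classes, and from -0.17 in genes of 20 to 50 kb to 0.09 in genes over 500 kb.

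Among 3841 mappable bodies with at least 500 reads, 346 (9.01%) had at least 2-fold more HA-H3.3 and 2 (0.0521%) at least 2-fold more HA-Macro. A body could pass this minimum through HA-H3.3 alone, so that these counts describe only the bodies that passed. The bodies at both ends were chosen after their values were seen. Rarg, a retinoic acid receptor, had 628 HA-H3.3 and 119 HA-Macro reads, and Mybl2, a factor of the cell cycle, 599 and 125. Trim71, a regulator of early development, had 1054 and 235, and Klf3 466 and 102. At the other end Muc19, a mucin, had 262 and 677 reads and Tmc2, a channel protein of inner ear hair cells, 172 and 385. The no-Dox library had 510 reads in the body of Muc19 and 248 in that of Tmc2. At 3 hours the log2 ratios were 0.73 for Rarg, 0.18 for Mybl2, 0.30 for Trim71 and 0.43 for Klf3. Those of Muc19 and Tmc2 were then -1.07 and -0.01. Exons lying over 5 kb from any TSS had 7.19 HA-H3.3 and 5.97 HA-Macro reads per kb, introns 4.67 and 4.35. The exon level was thus 1.54 times the intron level for HA-H3.3, 1.37 times for HA-Macro and 1.25 times without Dox. At 3 hours the order was the opposite, with 1.50 times for HA-H3.3 and 1.56 times for HA-Macro.

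At gene ends the variants differed less than at starts. At 12281 protein-coding gene ends with no TSS within 5 kb, HA-H3.3 had 7.38 reads per kb in the 2 kb upstream and 7.26 in the 2 kb downstream, and HA-Macro had 5.50 in both. The log2 ratios were 0.43 (0.42 to 0.44) upstream and 0.40 (0.39 to 0.41) downstream. At 3 hours they were -0.040 and -0.049, which are smaller than the scaling shifts and have no settled direction. From 2 to 5 kb downstream the ratio was 0.24. Right before the end, at 125 bp upstream, HA-H3.3 dipped to 1.50 and HA-Macro to 1.11 times the genome mean, from 1.78 and 1.30 times at 625 bp upstream, and the no-Dox library had 1.10 and 1.12 times at those places.

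Away from gene starts, the answer to which variant was higher depended on the library that chose the windows. Each 3 hour library shares its line and interval length with 1 of the 6 hour libraries, so its choice favours that variant. Over 2164875 windows of 1 kb that lie over 5 kb from any TSS, gene bodies included, HA-H3.3 averaged 3.70 reads, HA-Macro 3.98 and no Dox 4.10. Over the 1637698 mappable ones the means were 4.40, 4.28 and 4.36 reads, and 16.2% passed 2-fold toward HA-H3.3 and 22.2% toward HA-Macro. The log2 ratios, -0.10 over all and 0.04 over mappable windows, are no larger than the scaling shifts, so no direction is given. In the 5000 windows with the most HA-H3.3 at 3 hours, HA-H3.3 at 6 hours averaged 42.4 reads, HA-Macro 11.4 and no Dox 6.75, a log2 ratio of 1.89 (1.88 to 1.91). Of these windows 3995 (79.9%) passed 2-fold toward HA-H3.3, against 13.6% of all distal windows, which hold far fewer reads each. In the 5000 with the most HA-Macro at 3 hours, HA-H3.3 averaged 21.7 reads and HA-Macro 14.9, a ratio of 0.55 (0.54 to 0.56). Both sets had high GC content, 53.5% and 53.3% against 41.5% in all distal windows, and they shared 990 windows, 19.8% of each. Each set holds 5000 of the 2164875 distal windows, so unrelated sets would share far fewer. The second ratio was 0.82 in mappable windows but -0.09 in the 1000 windows with the most HA-Macro at 3 hours. The latter is smaller than the scaling shifts, so that no order is settled there.

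Windows chosen by HA-Macro at 12 hours gave the opposite order. The library that chose them shares its line, antibody and 150 bp intervals with HA-Macro at 6 hours. An excess of HA-Macro is thus favoured by the choice and supports no difference between the variants. In the 5000 windows with the most HA-Macro at 12 hours, HA-Macro at 6 hours averaged 22.8 reads, HA-H3.3 10.9 and no Dox 9.73, a log2 ratio of -1.07 (-1.08 to -1.05), and -0.80 in mappable windows. In these windows 58.2% passed 2-fold toward HA-Macro, against 28.2% of all distal windows. Among mappable ones the shares were 47.4% and 22.2%. All distal windows averaged 3.70 HA-H3.3 and 3.98 HA-Macro reads, where single reads move a ratio more, so the shares are not from like windows. GC content there was 46.0%. In the 5000 windows with the most anti-MacroH2A2 signal, which reads all MacroH2A2 rather than new protein, both variants averaged alike, with 14.4 HA-H3.3 and 14.5 HA-Macro reads and a ratio of -0.01 (-0.02 to 0.01), 0.05 in mappable windows. The anti-MacroH2A2 library shares 400 bp intervals and few reads in repeated sequence with HA-H3.3, so its choice is not neutral between the variants. In the 5000 windows richest in the no-Dox library HA-H3.3 averaged 8.08 and HA-Macro 13.2 reads.

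**Figure D4:**
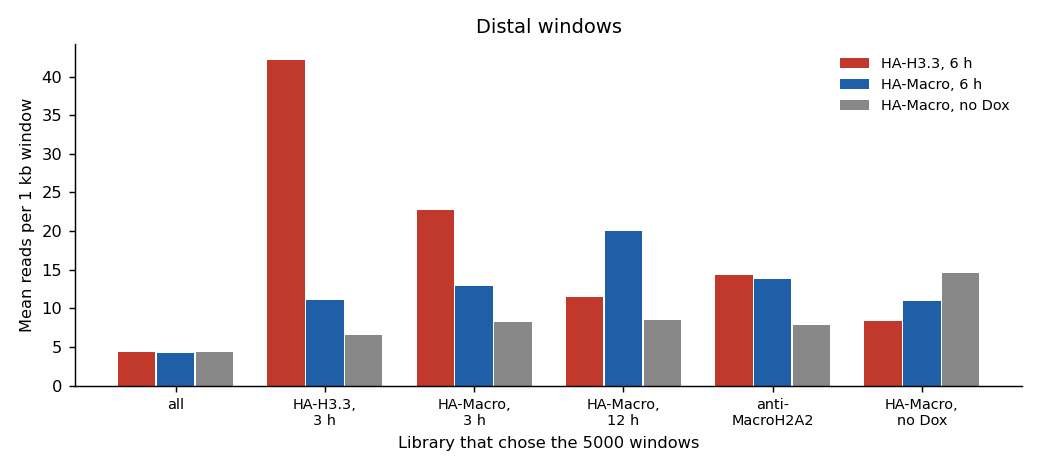
Mean reads per 1 kb window over 5 kb from any TSS at 6 hours, for all mappable windows (first group) and for the 5000 mappable windows with the most reads in the library named under each group. HA-H3.3 leads in windows chosen by either 3 hour library (42.1 and 22.7 reads) and HA-Macro in windows chosen by HA-Macro at 12 hours (log2 ratio -0.80), and in the last group the grey bar is the library that made the choice.

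Among 12780 distal windows with at least 40 reads in both libraries together, 10015 (78.4%) had at least 2-fold more HA-H3.3 and 737 (5.77%) at least 2-fold more HA-Macro. Of the 12043 mappable ones 9702 (80.6%) and 514 (4.27%) passed. A window could pass this minimum through HA-H3.3 alone, and over all distal windows the shares were 13.6% and 28.2%, so these counts give no direction for windows in general. The 3 at the high end had 52 to 63 HA-H3.3 reads and no HA-Macro read. One (chr15:97203001-97204000) lies in an intron of Fam113b with 63 reads, at least 21 times as many, and with 16 HA-H3.3 and 8 HA-Macro reads at 3 hours. One (chr14:27881001-27882000) overlaps an exon of Il17rd, an antagonist of FGF signalling, with 62 reads. The third (chr15:101107001-101108000) lies outside protein-coding genes, 7232 bp from the TSS of 9430023L20Rik. The 3 at the low end had no HA-H3.3 read and 55 to 75 HA-Macro reads, but also 44 to 66 reads without Dox, and at most 22.2% of their positions are unique. Of the mappable windows, those at the low end lay in introns of Trhde and Bbox1 and between genes on chromosome 14, with 49 to 72 HA-Macro reads, 31 to 59 reads without Dox and 0 or 1 HA-H3.3 reads.

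In tiles of 100 kb the 2 libraries followed each other, with a Pearson correlation of 0.86 over 23673 tiles, which share base composition and gene content and are not independent. HA-H3.3 varied more from tile to tile, with a coefficient of variation of 72.3% against 34.8% for HA-Macro and 11.6% for no Dox. The SD of the log2 ratio was 0.66, and 0.44 over 18421 mappable tiles, where counting alone gives 0.10. In 431 tiles (1.82%) HA-H3.3 was at least 2-fold higher and in 698 (2.95%) HA-Macro was. Of the mappable tiles 422 (2.29%) and 5 (0.0271%) passed, so that nearly all tiles with 2-fold more HA-Macro were tiles of repeated sequence.

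Both variants were more abundant in tiles with more genes, and HA-H3.3 more steeply. In the 10005 mappable tiles without a protein-coding TSS the medians were 278 HA-H3.3, 355 HA-Macro and 416 no-Dox reads, and the median log2 ratio was -0.32. In tiles with 3 to 4 such TSSs the medians were 754, 563 and 473. In the 52 tiles with 9 or more they were 1370, 794.5 and 528, and the median ratio was 0.84. Over mappable tiles the correlation of the ratio with gene number was 0.52 and with GC content 0.45, and both properties moved together, from 40.6% GC in tiles without a TSS to 50.1% in those with 9 or more. At 3 hours the same tiles had 220 HA-H3.3 and 199 HA-Macro reads without a TSS and 593.5 and 535.5 with 9 or more, at a smaller total, so that both variants then stood in nearly the same relation to gene number. Across mappable tiles the log2 ratio at 6 hours and that at 3 hours had a correlation of -0.29, whereas over all tiles, those of repeated sequence included, it was 0.62.

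**Figure D5:**
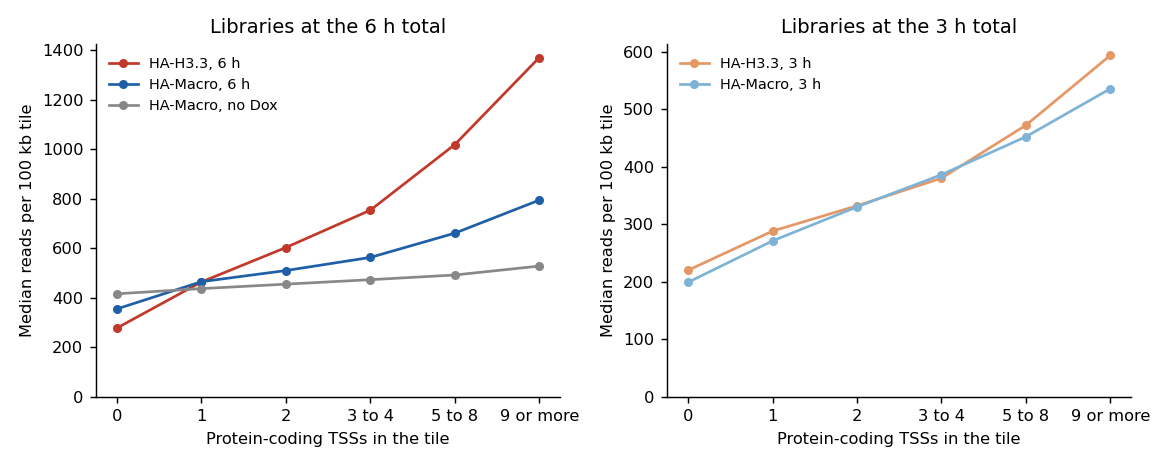
Median reads per mappable 100 kb tile by the number of protein-coding TSSs in the tile, for the 6 hour libraries and HA-Macro without Dox (left) and the 3 hour libraries at their smaller total (right), 1 library each. At 6 hours HA-H3.3 goes from 278 to 1370 reads and HA-Macro from 355 to 794.5, whereas at 3 hours the lines nearly coincide.

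The 3 tiles with the highest ratio each held 1 to 3 protein-coding starts. The tile at chr14:71000001-71100000 with Epb4.9, Fgf17 and Npm2 had 1440 HA-H3.3 and 393 HA-Macro reads, a log2 ratio of 1.87 (1.71 to 2.04). That at chr4:132600001-132700000 with Wasf2, a regulator of actin assembly, had 2708 and 789. That at chr10:6000001-6100000 with Akap12, a scaffold of protein kinase A, had 1723 and 510. Their ratios at 3 hours were 0.01, 0.30 and -0.11. The 3 tiles at the other end, ordered after 1 read was added, had no HA-H3.3 read, 459 to 784 HA-Macro reads and 497 to 600 reads without Dox, and lay in duplicated sequence near Dynlt1c, Dynlt1e and Gm3401. Of the mappable tiles, the lowest was that of Muc19 at chr15:91700001-91800000, with 297 and 685 reads and 555 without Dox.

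Whole chromosomes differed less than tiles, and their order followed gene number only in part. In mappable tiles the log2 ratio was highest on chromosome 11, at 0.29 (0.29 to 0.30) with 1.45 protein-coding TSSs per tile, followed by chromosome 17 at 0.23 and chromosome 4 at 0.21. It was lowest on chromosome 8, at -0.03 (-0.04 to -0.03) with 0.85 TSSs per tile, and on chromosome 13 at -0.0026. Chromosome 12, with 0.65 TSSs per tile, was at 0.05, and chromosome 7, with 1.45, at 0.20. At 3 hours all 19 chromosomes lay between 0.04 and 0.08.

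The order of the gene lists at 6 hours was not that at 3 hours. Over all promoters the pooled log2 ratio of HA-H3.3 over HA-Macro was 0.41 at 3 hours and 1.19 at 6 hours. For cytosolic ribosomal proteins it was -0.25 and 1.15, for replication-dependent histones 0.05 and 1.52 and for pluripotency genes 0.20 and 1.65, beside 0.52 and 1.40 for protein-coding promoters in general. The gap was wide in other lists too, such as mitochondrial ribosomal proteins with 0.16 and 1.56. For Hox genes it was 0.42 and 0.38, and for olfactory receptors 0.15 and -0.49. Rpl8 had 6 HA-H3.3 and 22 HA-Macro reads at 3 hours against 18 and 15 at 6 hours, and Pou5f1 16 and 20 against 60 and 13. The 3 hour counts come from 6280929 reads a library and the 6 hour counts from 10401138. Only the relation between the variants can thus be read across the times. No test of these gaps was possible with 1 library at each time.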

How the data were processed

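ChIP-Seq libraries were grouped by their sample labels. The deposited files list mapped intervals, whose start and end positions are the only values used, with no unit or normalization. Per the paper's methods, the authors merged identical sequences before alignment to mm9, for which Bowtie was used (1.0 in the submitters' processing notes) with 1 mismatch allowed. A sequence that fitted several places was put at 1 of them at random, and aligned sequences were lengthened in the 3′ direction to 150 bp. The 400 bp intervals and the few reads of those libraries in duplicated sequence differ from that description, and whether their mapping settings differed is not given in the sources used here. Uniqueness was computed for sequences of 32 bases, an assumed read length. Repeated intervals made up 0.694% of the HA-H3.3 library and 5.44% of the HA-Macro library, so each distinct interval was counted 1 time, at its midpoint.

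Genes came from the GENCODE annotation of mm9 (34653 on chromosomes 1 to 19). The TSS was taken as the 5′ end of each gene record, so only the most upstream annotated start of a gene was read. Other starts inside a gene were not counted as TSSs, also where distances from TSSs were used. The 249 tiles of 100 kb with the most no-Dox reads, 1% of tiles, were discarded with the 980 TSSs inside them. Tiles with 0 reads in either library were left out of tile ratios and correlations and are described by their counts. Ratios of single promoters, bodies and windows are log2 after adding 1 read to each count, and pooled ratios have none added. Pooled promoter sums count a read again where windows overlap. The 3 hour libraries were thinned to 6280929 reads. Scripts used Python 3.11.15, NumPy 2.4.6, SciPy 1.17.1 and pandas 2.3.3, and counting was tested on simulated data.

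Genes were named by rule: the 10 protein-coding promoters at each end of the ratio among those with at least 40 reads, up to 4 members of each list with the most reads, genes that the study names or that encode the variants and their chaperones, and the 3 tiles and windows at each end. Members of lists beyond that, gene bodies, and mappable tiles and windows were picked after their values were seen. The comparison and the 20 gene lists were chosen with earlier results of these data known. Tfcp2l1 and Kcnq1ot1 were not matched in the annotation. The alternatives were other ways to count and scale reads, other windows, minimums and added reads, the 3 hour libraries, and, added after seeing the data, mappable windows.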

Additional observations from a re-analysis of the deposited data

Results flagged for a closer look

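The TSS peak went in opposite directions between 3 and 6 hours of Dox in the 2 lines, which is why it is listed here. On the log2 scale, HA-H3.3 went from 1.00 at 3 hours to 1.29 at 6 hours, a change of 0.28. HA-Macro went from 0.61 to 0.34, a change of -0.27, and was at 0.16 at 12 hours, below the 0.24 of the same line without Dox. These values are relative to the level 4 to 2 kb upstream, which was 1.21 times the genome mean at 12 hours and 1.04 times without Dox. The maximum near the TSS was 1.69 times the genome mean at 12 hours and 1.45 times without Dox. The lower value at 12 hours is thus not a lower signal at the TSS. Each time point is 1 library, and the difference between the 2 changes was not tested.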

How the results depend on the processing

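With 1 library for each variant, values could not be set against a spread between replicates, and a value counts as moved here when it left its counting interval, a count when it changed more than 1.5 times, and an SD or correlation when it changed by over 0.05. No paired analysis was possible because each condition has 1 library. The direction at gene starts was the same under all alternatives tried for them. It also stayed the same in windows chosen by HA-H3.3, but the choice favours it and the 3 hour libraries were not tried there. The 3 hour libraries gave TSS peaks of 1.00 and 0.61, a difference of 0.39, 2541 and 172 of 8358 promoters (30.4% and 2.06%) past 2-fold toward HA-H3.3 and HA-Macro, gene end ratios of -0.049 downstream and -0.040 upstream, a body ratio of -0.076, a tile SD of 0.52 and a correlation with gene number of -0.060 against 0.28 at 6 hours. At 3 hours the median log2 ratio of ribosomal protein genes was -0.21, of replication-dependent histones -0.17 and of keratin and epidermal genes 0.29, each opposite in sign to 6 hours. Counting every interval gave an HA-H3.3 peak of 1.29, gene end ratios of 0.46 and 0.48, a body ratio of 0.16 and ratios of 1.87 and 0.062 in distal windows chosen by HA-H3.3 and by HA-Macro. Sharing each read between both interval ends gave an HA-H3.3 peak of 1.25 and a difference of 0.91, and protein-coding genes alone gave peaks of 1.56 and 0.43 and a difference of 1.13. Keeping the places with the most no-Dox signal gave an HA-H3.3 peak of 1.27 and a tile correlation of 0.69.

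Promoters with 2-fold more HA-Macro depended on the window and the minimum, which also set how many were tested. They numbered 103 (0.781%) in protein-coding genes, 163 (1.02%) at full depth, 49 of 8670 (0.565%) with 300 bp and 772 of 21358 (3.61%) with 1000 bp on each side, 1827 of 24023 (7.61%) with at least 10 reads, 13 of 8383 (0.155%) with at least 40, 147 (0.901%) with 5 reads added and 154 (0.988%) in mappable windows, against 1.59% as first given. Those with more HA-H3.3 numbered 6885 (79.4%) with 300 bp and 7271 (86.7%) with at least 40 reads. Their share was lower with at least 10 reads (51.0%), 1000 bp (54.9%), 5 reads added (60.1%) and scaling to mappable windows (61.9%). Scaling to distal windows gave gene end ratios of 0.51 and 0.53, a body ratio of 0.22 and distal ratios of 2.00 and 0.65, and scaling to mappable windows gave 0.25 and 0.27, -0.041, and 1.74 and 0.40. Mappable windows alone gave peaks of 1.38 and 0.36 with a difference of 1.01, gene end ratios of 0.45 and 0.49, a body ratio of 0.15, distal ratios of 1.93 and 0.82, a tile SD of 0.44 and a correlation with gene number of 0.52. All gene ends gave 0.58 and 0.55, and bodies of genes of at least 100 kb -0.0043. The top 1000 distal windows gave 2.29 and -0.088, and those over 20 kb from a TSS 1.58 and 0.49. Tiles of 1 Mb gave an SD of 0.56 and a correlation of 0.94, and division by the no-Dox library a correlation of 0.80. The cause was not tested in any of these. Over all alternatives, 27 values of these results stayed the same, 56 moved and 7 changed sign. The log2 ratios among the 7 were smaller than the scaling shifts after the change, so their direction is not settled. Single promoters held few HA-Macro reads, with a median of 7 over all promoters, so that single ratios carry a wide counting error.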
